A study of Mus musculus with 21 samples.

Results

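Embryoid bodies are the floating aggregates in which mouse embryonic stem cells leave pluripotency and start to form the germ layers. The data described here are the step from day 3 to day 5 of that culture in the presence of ascorbic acid (vitamin C): 3 arrays of aggregates collected at day 5 against 3 arrays of aggregates collected at day 3, which are 6 of the 21 arrays in the series. The arrays were chosen by their titles. All aggregates came from CGR8, a mouse embryonic stem cell line. They were formed in hanging drops of 500 cells in 25 µL, went onto a shaker after day 2, and received 100 µM ascorbic acid in both groups, so that the 2 groups differ in time and not in treatment. Aggregates grown without ascorbic acid and collected at the same days (3 arrays at day 5 and 3 at day 3) stand beside them as controls, and 3 arrays of treated aggregates from day 2 give the level before the step. The labels call the 3 arrays of a group biological replicates. According to the submitters, cultures went onto arrays only where sister aggregates with ascorbic acid beat more often later on, so the samples are a selected set, of 1 cell line.

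In the mouse embryo, cells of the epiblast lose the pluripotency programme when they pass through the primitive streak, where Nodal, Wnt and FGF signals and the T-box factor Eomes operate. Cells that leave the streak become mesoderm or definitive endoderm. BMP signals then favour lateral plate mesoderm, from which heart, vessels and the first, embryonic blood cells arise, and Hox genes are switched on in order along the body axis. Ascorbic acid is the electron donor of a family of dioxygenases, which includes the prolyl hydroxylases that mature collagen and those that mark HIF for destruction, the TET enzymes and the JmjC histone demethylases.

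Signals are given on the log2 scale, where 1 unit means 2-fold. Of 18193 genes, 1675 rose from day 3 to day 5 with ascorbic acid (9.21% of those tested) and 1623 fell (8.92%), at an adjusted p under 0.05 in limma. These shares are the reference for each list count of this step below, and counts near them are not read as results about a list. Changes of over 2-fold were measured for 617 of the genes that rose and 435 of those that fell. The median difference over all genes was -0.0167. The direction was the same in each of the 3 same-numbered pairs of arrays for 1667 of the genes that rose and 1618 of those that fell. These genes were called on the same arrays, so the shared direction follows largely from the selection. Genes whose probes are meant for odorant and vomeronasal receptors, 71 in number, had a median of 4.86 over all arrays and a 90th percentile of 6.33. A level below 4.86 is treated as not shown to exceed background, and a difference measured against it is a lower bound. Levels between 4.86 and 6.33 lie within the range of these receptor genes. Log2 differences against such levels are given as measured, without a fold, and may understate the change. Each gene is represented by its probe set of highest mean, and other probe sets can differ: of 561 listed genes that did not pass, 47 had another probe set that did.

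Day separated the arrays: correlations between a day 5 and a day 3 array were 0.947 to 0.964, against at least 0.99 within either group. On the first principal component of all 21 arrays, which held 54.6% of the variance, the day 5 arrays lay at 55.98, 60.09 and 57.14 and the day 3 arrays at -6.1, -2.28 and -18.93. Array 3 of day 3 thus lay apart from the other day 3 arrays, on the side of day 2 (-33.13, -33.44 and -40.54), as did the control array of the same number and day (-18.35, against -2.84 and -2.19). Without array 3 of day 3 the count was 2183 genes, of which 1143 rose and 1040 fell. Where leaving out 1 array or taking the array number as a block moved the count of a list by over 1.5 times, that count is given. Genes named below beyond the rule given in the processing account were chosen after their values were seen. The difference between 3' and 5' probe sets of Actb, a sign of RNA length, was 1.09, 0.71 and 1.09 at day 5 and 1.28, 1 and 1.04 at day 3. In bulk samples such as these, more cells of a type and more RNA per cell cannot be told apart.

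The pluripotency programme was lower at day 5 almost throughout. Of 23 core and general pluripotency genes measured, 18 fell and 0 rose, with a median difference of -2.11 (1 rose with the array number as a block). Nanog, a homeobox factor of the pluripotent state, stood at 5.22, 6.50 and 5.99 on the day 5 arrays and at 11.48, 11.79 and 11.18 on the day 3 arrays. The groups lie far apart, and no day 5 array comes within 4 units of a day 3 array. The fall of 5.58 ± 0.35 (SE, adjusted p = 6.1e-10) ends at levels within the range of the receptor genes. Pou5f1 (Oct4), the POU factor that pluripotent cells need, fell by 4.91 ± 0.25, with 5.89, 7.32 and 6.49 at day 5 and 11.44, 11.46 and 11.53 at day 3. L1td1, an RNA-binding protein of stem cells, fell by 5.53, and Tdgf1 (Cripto), the co-receptor of Nodal, fell by 5.38. Sox2, a partner of Oct4 that neural cells also use, fell by 3.44 ± 0.43 and varied more at day 5 (8.41, 7.83 and 6.15) than at day 3 (10.87, 10.76 and 11.09). The loss was not uniform. Sall4, a zinc finger factor of stem cells that embryonic tissues also express, fell by 0.54 and stayed at a mean of 10.98 at day 5, and Trim71, a stem cell protein that also acts in the let-7 network, had means of 10.87 at day 5 and 10.75 at day 3. Lin28a, which blocks let-7 maturation, did not pass the test (difference -0.26), while another probe set of it fell by 0.90 (adjusted p = 0.011).

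The Nanog promoter is shown because Oct and Sox factors are known to act on it. Sequences here are the 250 bases before a gene's RefSeq start on build GRCm38.p6, and 14368 of the genes tested have at least 1 such start. Capitals mark the letters ATGCAAA, part of the octamer bound by Oct factors, searched on both strands. This Nanog window lies at chr6:122707239-122707488 on the plus strand, and the match begins 75 bases before the start. The letters were found in 4.12% of all 32851 promoter windows, in 3.54% of the 18009 windows of genes tested, in 4.52% of 1661 windows of genes that fell and in 2.73% of 1723 windows of genes that rose.
Nanog: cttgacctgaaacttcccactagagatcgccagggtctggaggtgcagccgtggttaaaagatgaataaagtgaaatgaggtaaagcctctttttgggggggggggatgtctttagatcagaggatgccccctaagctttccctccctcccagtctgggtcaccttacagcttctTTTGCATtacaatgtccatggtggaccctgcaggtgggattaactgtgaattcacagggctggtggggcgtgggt

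Genes of the primed epiblast, the state just before gastrulation, went the same way: 12 of 15 fell and 0 rose (median -2.48). Fgf5, the classical marker of that state, had 5.25, 5.52 and 4.77 at day 5 and 10.58, 10.66 and 10.28 at day 3, a fall of 5.33 ± 0.42 (adjusted p = 1.8e-08). Pou3f1 (Oct6) fell by 4.37 ± 0.71, Zic5 fell by 4.02 and Zic2 fell by 3.66, both zinc finger factors of epiblast and neural plate. Otx2, a homeobox factor of epiblast and head, fell by 2.99 ± 0.74. It had 8.20, 7.93 and 5.73 at day 5, so that array 3 was the lowest, and 10.24, 10.30 and 10.30 at day 3. Genes of the naive state, which precedes the epiblast, showed no common direction, with 4 rises and 2 falls among 16 (median -0.24). With the array number as a block the falls numbered 6. Tbx3 (2.15) and Klf4 (1.47), which rose, are expressed in mesoderm or epithelia as well.

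**Figure D1:**
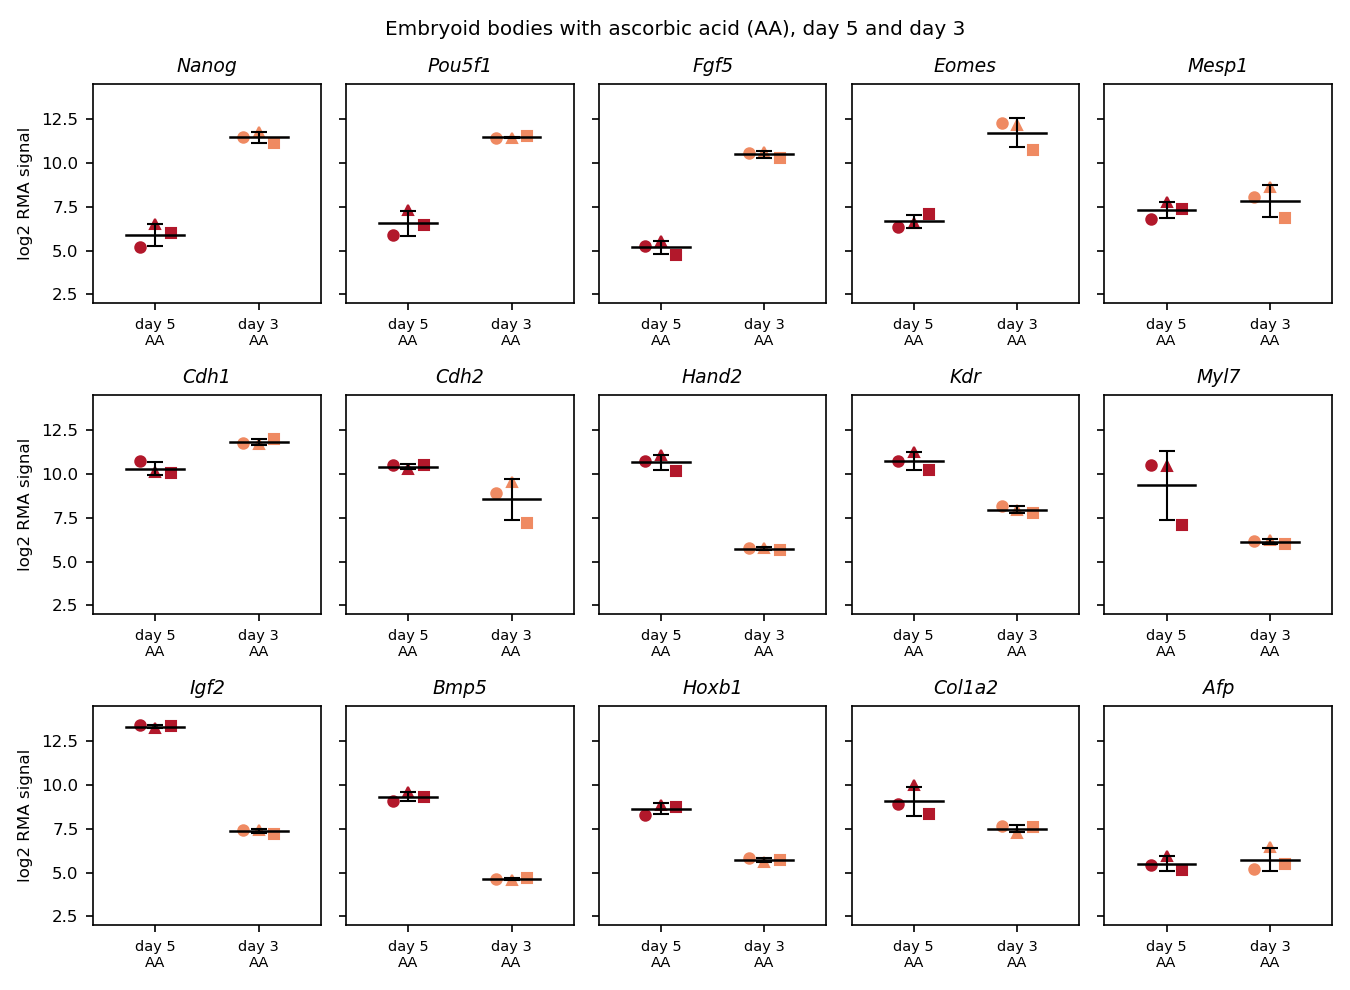
Log2 RMA signal (y axis) of 15 genes in embryoid bodies grown with ascorbic acid (AA), day 5 left of day 3. Circles, triangles and squares are arrays 1, 2 and 3, and black bars are the mean and SD of 3 arrays. Nanog, Pou5f1, Fgf5 and Eomes are lower at day 5 on every array, Hand2, Igf2 and Bmp5 are higher on every array, and Afp overlaps between the days. Array 3 is the lowest of day 5 for Myl7 (7.08) and the lowest of day 3 for Cdh2 (7.22).

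Streak and nascent mesoderm genes differed among the day 3 arrays. Of 26, 4 rose and 4 fell (median -0.34). Without array 3 of day 3, 12 fell and 3 rose. Falls numbered 7 without array 3 of day 5 and also with the array number as a block. Eomes, the T-box factor that marks the streak, stood at 6.36, 6.56 and 7.07 at day 5 and at 12.27, 12.20 and 10.78 at day 3. It fell by 5.09 ± 0.43 (adjusted p = 4.4e-08), and its mean was 7.11 at day 2, so of these days it was highest at day 3. Fst (follistatin), which binds and blocks activin, fell by 5.09 ± 0.48 and had averaged 7.82 at day 2. Fgf8, the streak's FGF ligand, fell by 3.78 ± 0.36, with 5.85, 5.80 and 5.37 at day 5 and 9.71, 10.02 and 8.64 at day 3.

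Mixl1, a homeobox factor of the streak, fell by 3.09 ± 0.79 (adjusted p = 0.0083), with 6.54, 6.03 and 6.40 at day 5 and 10.36, 10.84 and 7.04 at day 3. Its array 3 of day 3 lies close to the day 5 arrays, and without array 2 of day 3 the adjusted p was 0.062. Mesp1, the factor of the earliest heart-forming mesoderm, had 6.82, 7.77 and 7.35 at day 5 and 8.05, 8.65 and 6.85 at day 3. The groups overlap and the gene did not pass the test (difference -0.54, adjusted p = 0.38). It fell by 1.04 without array 3 of day 3 (adjusted p = 0.044). Gsc (goosecoid, of the anterior streak) showed the same pattern more sharply, with 5.17, 5.22 and 4.77 at day 5 and 7.7, 8.19 and 4.86 at day 3. It passed the test without that array (-2.89, adjusted p = 0.0034) and not with it (adjusted p = 0.077). Sp5, a Wnt target, likewise passed without it (-3.49). With the array number as a block, Gsc (adjusted p = 0.019) and Sp5 (adjusted p = 0.031) both fell.

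Between day 2 and day 3 with ascorbic acid, 620 genes rose (3.41% of those tested) and 234 fell (1.29%). These tests share the day 3 arrays with the step to day 5, so the 2 sets of values are set side by side and their overlap is not read. Of the 26 streak genes, 9 rose and 0 fell in that earlier step. Eomes rose by 4.64 (adjusted p = 9.1e-06), Fgf8 by 3.48 and Fst by 3.39. The 4 streak-list genes that rose after day 3 are Dkk1 (2.39), a secreted Wnt inhibitor, Cdx2 (2.27), a caudal factor of posterior tissue and trophoblast, Amot (2.23), a junction protein of the Hippo pathway, and Frzb (2.09), another Wnt inhibitor. Frzb lost its call without array 3 of day 3 (1.31, adjusted p = 0.14).

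**Figure D2:**
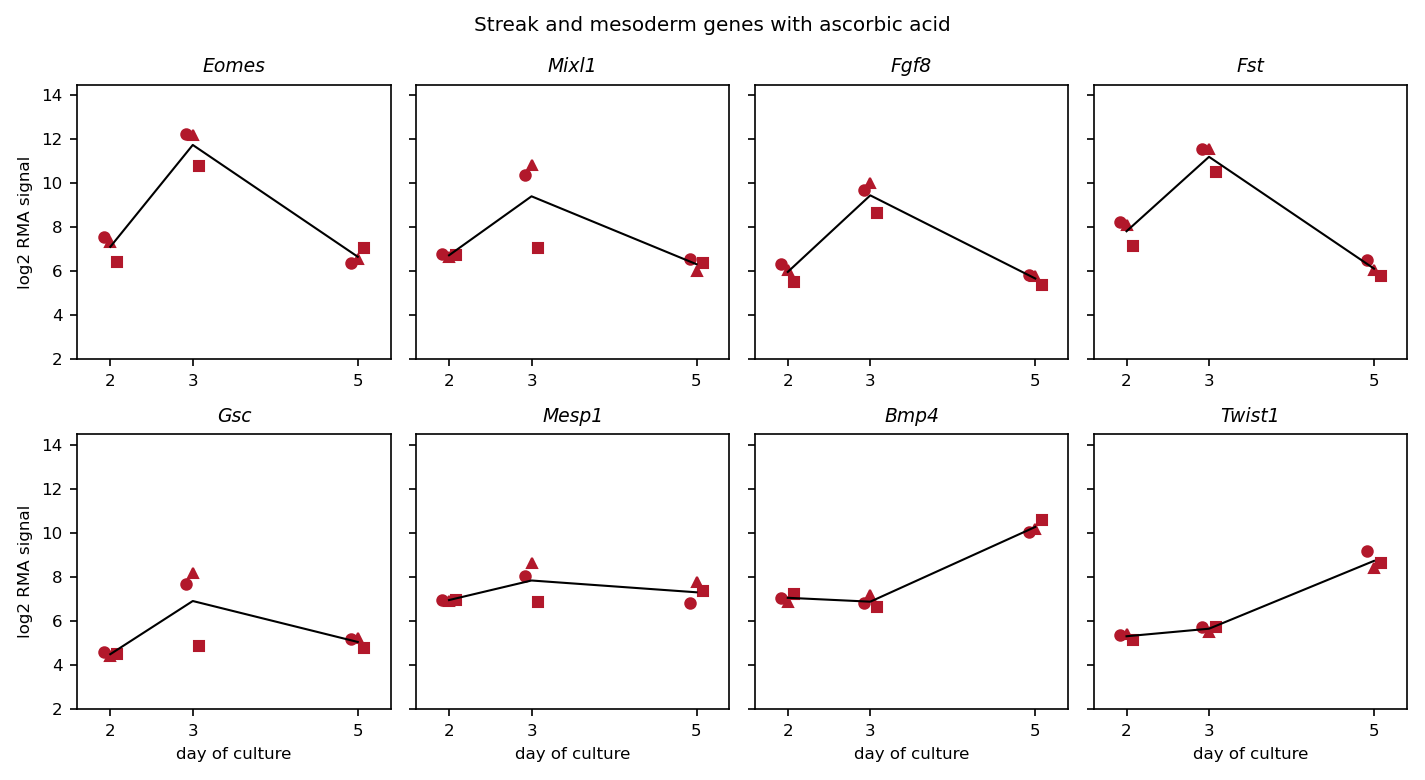
Log2 RMA signal (y axis) of 8 genes by day of culture with ascorbic acid (x axis, days 2, 3 and 5). Circles, triangles and squares are arrays 1, 2 and 3 of a day, and the line joins the means of 3 arrays. Eomes, Mixl1, Fgf8, Fst and Gsc are highest at day 3 in their means, with array 3 of that day the lowest of its group, while Bmp4 and Twist1 are highest at day 5.

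Genes of the passage from epithelium to mesenchyme changed in both directions. Of 27 genes of this list, 9 rose and 5 fell (median 0.04). Cdh1 (E-cadherin, the adhesion molecule of epithelia) had 10.74, 10.15 and 10.07 at day 5 and 11.78, 11.71 and 12.01 at day 3, a fall of 1.51 ± 0.36 (adjusted p = 0.0045). Its day 5 level was still high, and the groups do not overlap. Snai2 (Slug), a zinc finger repressor of Cdh1, had 10.44, 10.94 and 10.95 at day 5 and 4.5, 4.88 and 4.49 at day 3. The rise of 6.15 ± 0.21 (adjusted p = 5.7e-14) is a lower bound, since the day 3 mean is below 4.86. Twist1, a basic helix-loop-helix factor of mesenchyme, rose by 3.09 ± 0.26 and Vim, the intermediate filament of mesenchymal cells, by 2.63. Zeb1 rose by 2.25. Snai1, which acts before Slug in the embryo, had a difference of 0.66 that did not pass (adjusted p = 0.083), and passed with the array number as a block (adjusted p = 0.038).

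Cdh2 (N-cadherin) had 10.52, 10.27 and 10.50 at day 5 and 8.91, 9.53 and 7.22 at day 3. The day 5 arrays are all higher, and the rise of 1.88 ± 0.63 (adjusted p = 0.043) was lost when any array except number 2 of day 3 was left out, with 1.21 and an adjusted p of 0.27 without array 3 of day 3. Cdh11, a cadherin of mesenchyme, rose by 3.34 ± 0.81, with 8.12, 8.85 and 5.13 at day 3. Without array 3 of day 3 its difference was 2.22 (adjusted p = 0.054).

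Lateral plate and cardiac mesoderm rose in most of its genes. Of 27 genes, 19 rose and 1 fell, with a median of 1.53. Hand2, a basic helix-loop-helix factor of heart and limb, had 10.75, 11.07 and 10.20 at day 5 and 5.79, 5.77 and 5.67 at day 3, a rise of 4.93 ± 0.18 (adjusted p = 1.5e-13). Its partner Hand1 rose by 1.12. Foxf1, a forkhead factor of splanchnic mesoderm, rose by 3.50 ± 0.33, and its array 3 of day 5 was the highest (9.5, 9.34 and 11.10). Pdgfra, the PDGF receptor of paraxial and cardiac mesoderm, rose by 3.86 ± 0.42, with 9.62, 10.62 and 10.60 at day 5 and 6.6, 7.37 and 5.30 at day 3. Hey2, a Notch-responsive factor of the ventricle, reached a mean of 7.75 at day 5 against a background-level 3.65 at day 3.

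The cardiac GATA and T-box factors rose too. Gata6 rose by 3.09 and Gata4 by 1.26. Tbx20 rose by 1.11 in its probe set of highest mean, and by 5.48 and 3.50 in the others, which were below 4.86 at day 3. Isl1, the factor of the second heart field, rose by 1.53 in that probe set and by 3.68 in the other. Nkx2-5, the homeobox factor that marks cardiac progenitors, had 7.69, 7.92 and 7.37 at day 5 and 7.57, 7.40 and 7.29 at day 3. These values overlap (difference 0.24 ± 0.18, adjusted p = 0.45). Tdgf1 was the member that fell, and pluripotency lists hold it too. Paraxial and intermediate mesoderm, the sources of somites and kidney, gave 2 rises and 2 falls among 24 genes (median 0.03), 4 falls with the array number as a block and 5 rises with the probe set of largest variance. Foxc2 (2.15) and Foxc1 (1.74), forkhead factors of mesenchyme that were below 4.86 at day 3, rose, and Dll3 (-1.54) and Tcf15 (-1.14), factors of the somite that epiblast also expresses, fell.

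Genes of the contractile apparatus split between isoforms. Of 28 cardiomyocyte structure genes, 9 rose and 1 fell (median 0.11). Leaving out array 3 of day 3, array 2 of day 3 or array 2 of day 5 gave 5 rises each time. Falls numbered 2 without array 3 of day 3, without array 1 of day 5 and with the array number as a block. Myl7, the atrial light chain that the early heart tube expresses, had 10.55, 10.47 and 7.08 at day 5 and 6.2, 6.23 and 6 at day 3. Arrays 1 and 2 of day 5 are more than 4 units above every day 3 array, and array 3 is 1.08 above the day 3 array of its number. The rise was 3.22 ± 0.61 (adjusted p = 0.0007). Myl4, the embryonic light chain, repeated this with 8.64, 8.85 and 6.56 at day 5 and 5.24, 4.98 and 5.50 at day 3 (2.78 ± 0.50). Tnnc1, the slow and cardiac troponin C, rose by 2.75 ± 0.16 and was even across day 5 arrays (8.87, 8.81 and 8.37). Tnni1, the fetal troponin I, rose by 2.49 and Ryr2, the calcium channel of the sarcoplasmic reticulum, by 1.61 against a mean of 4.81 at day 3.

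For Tnnt2 (cardiac troponin T) the probe sets disagreed. The one of highest mean did not pass, with 5.45, 5.60 and 5.54 at day 5 and 5.49, 5.4 and 5.31 at day 3, all within the range of the receptor genes. Another had 9.5, 8.77 and 4.64 at day 5 and 3.25, 3.15 and 3.18 at day 3, a rise of 4.44 ± 0.85 (adjusted p = 0.00096), and the last rose by 3.39 (adjusted p = 0.001). Array 3 was the lowest of day 5 in both of these. Myh6, the alpha myosin heavy chain, had 6.87, 5.68 and 4.10 at day 5 and 5.86, 6.28 and 6.64 at day 3 (difference -0.71, adjusted p = 0.44). Ttn (titin) differed by 0.20 and Nppa (atrial natriuretic peptide) by 0.08, both short of the threshold. Of 14 smooth muscle contraction genes, 4 rose and 2 fell. Without array 3 of day 3, 2 rose and 1 fell, the same counts as without array 2 of day 5, and 1 fell when array 1 of day 5, array 3 of day 5 or array 2 of day 3 was left out. The list held Acta2, the smooth muscle actin that early heart muscle also uses, up by 1.93 and the calponin Cnn1 down by 1.15.

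Vessel genes rose with no falls among them: 14 of 24 (median 0.88). Kdr (Flk1), the VEGF receptor of blood and vessel progenitors, had 10.73, 11.29 and 10.24 at day 5 and 8.19, 7.94 and 7.80 at day 3, a rise of 2.78 ± 0.21 (adjusted p = 1.1e-08). Tek (Tie2), the angiopoietin receptor, had 10.11, 9.74 and 7.67 at day 5 and 6.04, 5.82 and 5.96 at day 3 (3.23 ± 0.65). Array 3 was again the lowest of day 5, as for Cdh5 (VE-cadherin), with 8.12, 7.30 and 5.63 at day 5 against 4.68, 4.15 and 4.60 at day 3, below 4.86. Sox7, a factor of early endothelium and endoderm, was even (7.96, 7.82 and 7.71 at day 5) and rose by 3.11 against a mean of 4.72. Calcrl, a receptor that pairs with Ramp2 to bind adrenomedullin, reached 8.85, 8.33 and 6.65 at day 5 against background levels near 3.47 at day 3, and Ramp2 itself rose by 2.07. Nrp1, a co-receptor for VEGF and semaphorins, stood at 11.47, 11.47 and 11.43 at day 5 and 5.96, 6.06 and 5.82 at day 3. Rgs5, a G-protein regulator of the pericytes around vessels, rose by 5.83 ± 0.24 against a level below 4.86, and Aplnr, the apelin receptor of heart and vessel progenitors, by 4.94 ± 0.76. Aplnr had 7.90, 8.79 and 4.98 at day 3, the third far below the others.

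The largest measured rise among all genes tested was that of an embryonic globin. Of 24 primitive blood genes, 13 rose and 1 fell, with a median of 0.60. Falls numbered 0 without array 1 of day 3, array 2 of day 5 or array 3 of day 5, and 2 with the array number as a block. Hbb-bh1, the beta-like globin of yolk sac red cells, stood at 13.30, 12.99 and 10.97 at day 5 and at 5.03, 5.31 and 5.15 at day 3. All day 5 arrays are far above day 3, with array 3 more than 2 units below the others. The rise was 7.26 ± 0.59 (adjusted p = 2.6e-08), measured against levels within the range of the receptor genes, and globin probe sets can share target sequence. Hba-x, the zeta globin of the same cells, had 10.68, 10.68 and 7.01 at day 5 and 6.87, 6.58 and 6.55 at day 3 (2.79 ± 0.62, adjusted p = 0.0029). For this gene array 3 of day 5 is barely above the day 3 arrays. Hba-a1, the adult alpha globin, had a difference of 0.01.

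The factors above the globins rose as well. Tal1 (Scl), the basic helix-loop-helix factor that specifies blood, had 9.67, 9.54 and 9.54 at day 5 and 5.51, 5.50 and 5.32 at day 3, a rise of 4.14 ± 0.15 (adjusted p = 1.5e-13) with little spread. Lmo2, the adaptor in the Tal1 complex, rose by 2.03, Nfe2, a leucine zipper factor of red cells and platelets, by 1.80, Gata2 by 1.57, Klf1, the switch factor of erythroid genes, by 1.41, and Gata1 by 1.16. Genes of definitive blood depended on the probe set. Runx1 differed by 0.11 in its probe set of highest mean, which did not pass, while 2 of its other 5 probe sets rose, by 1.84 (adjusted p = 1.4e-06) and 0.51 (adjusted p = 0.045). Ikzf1 differed by 0.15, which did not pass, and rose by 1.21 in its other probe set (adjusted p = 0.0026). Spi1 (PU.1) differed by -0.27, which did not pass. Ptprc (CD45), on all white cells, stayed at background in both groups (means of 3.69 and 3.82). Among 15 macrophage and leukocyte markers, 1 rose, Mrc1 (1.64 ± 0.46), which some endothelium also carries. The list had 0 rises without array 2 of day 3, array 1 of day 5 or array 2 of day 5, 2 without array 1 of day 3, and 1 fall with the array number as a block. Mrc1 had 8.17, 8.02 and 5.64 at day 5 and 5.51, 5.45 and 5.95 at day 3. Its array 3 of day 5 lies within the day 3 values. The mean over these markers was 5.44 to 5.63 on day 5 arrays and 5.42 to 5.54 on day 3 arrays. Csf1r and Tyrobp, defining markers of macrophages, had differences of 0.14 and 0.27 that did not pass. The rises were larger without array 3 of day 5, at 7.98 for Hbb-bh1, 4.01 for Hba-x, 3.98 for Tek, 4.37 for Myl7 and 3.23 for Cdh5, a lower bound. Array 3 was the lowest of day 5 for each of these genes, so a larger rise without it follows by construction.

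The Hba-x promoter is shown for its short erythroid letters: capitals mark GATAA, the core that GATA factors bind, 107 bases before the start, and TATAAA, the TATA box, 28 bases before it. The window is chr11:32276350-32276599 on the plus strand. GATAA was found in 22.6% of all promoter windows, TATAAA in 12.4%, searched on both strands. GATAA was in 10 of the 24 windows of the 18 primitive blood genes that matched. It was in 17.5% of windows of genes tested, 15.6% of those of genes that rose and 14.8% of those of genes that fell.
Hba-x: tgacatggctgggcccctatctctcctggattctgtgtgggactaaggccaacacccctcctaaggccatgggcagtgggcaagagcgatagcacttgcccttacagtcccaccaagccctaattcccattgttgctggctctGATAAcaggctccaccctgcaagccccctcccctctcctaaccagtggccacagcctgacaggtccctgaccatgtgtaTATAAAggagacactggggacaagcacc

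Nodal and BMP signalling genes differed in their counts. Of 21 Nodal and Activin genes, 7 fell and 4 rose, while 14 of 26 BMP genes rose and 0 fell (medians 0.06 and 0.52). Nodal itself had 6.74, 7.06 and 6.68 at day 5 and 10.34, 10.10 and 10.49 at day 3, a difference of -3.48 ± 0.21 (adjusted p = 2.8e-10). Its feedback inhibitors Lefty2 and Lefty1 fell by 3.64 and 1.76, and Lefty2 ended at a mean of 4.48, below 4.86. The co-receptors of Nodal moved apart: Tdgf1 fell, while Cfc1 (Cryptic), which acts later in left-right patterning, rose by 3.16 ± 0.34, with 9.78, 11.64 and 10.88 at day 5. Among BMP ligands, Bmp5 had 9.11, 9.60 and 9.31 at day 5 and 4.61, 4.59 and 4.69 at day 3, a rise of 4.71 ± 0.14 that is a lower bound. Bmp2 rose by 4.08 and Bmp4 by 3.40. The targets and feedback genes of the pathway rose too, among them Smad6 (3.63), Msx2 (2.71), Bambi (2.63), Id2 (2.01), Id3 (1.65) and Id1 (1.43). The antagonists Nog, Chrd and Grem1 had differences of 0.01, -0.32 and -0.04, none past the threshold, and Chrd fell without array 3 of day 3 (adjusted p = 0.043).

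FGF genes moved both ways. Of 24 FGF genes, 7 rose and 9 fell (median -0.15): Fgf5, Fgf8 and Fgf4 (2.11 lower) fell, Fgf3 rose by 2.75 ± 0.32 and the receptor Fgfr3 by 2.54. Among 35 Wnt genes, 9 rose and 3 fell. Rspo3, a secreted amplifier of Wnt signals, rose by 3.60 ± 0.38, Wnt5a, a ligand of posterior mesoderm, by 2.58 and Wnt2, a ligand of cardiac mesoderm, by 2.35, while Wnt8a, a ligand of the streak, fell by 2.48 to a mean of 4.55. Falls of Wnt genes numbered 6 without array 3 of day 3 and 5 without array 3 of day 5. Notch genes gave 4 rises and 3 falls among 20, with 1 fall without array 3 of day 3, array 1 of day 5 or array 3 of day 5. Of 19 insulin-like growth factor and PDGF genes, 9 rose and 2 fell, led by Igf2.

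Hox genes rose in 12 cases of 33 and fell in 0, and the clusters differed in count. In the b cluster 6 of 9 measured genes rose, in d 4 of 8, in c 2 of 7 and in a 0 of 9. In the a cluster, Hoxa2, Hoxa4 and Hoxa10 were below 4.86 on both days. Another probe set of Hoxa9 rose by 0.72 (adjusted p = 0.049) against a mean of 4.66 at day 3. Hoxa5 passed with the array number as a block (adjusted p = 0.036). By position along the cluster, 5 of 10 genes of paralog groups 1 to 4 rose, 4 of 9 of groups 5 to 8 and 3 of 14 of groups 9 to 13. These counts include Hoxc10 (means of 4.48 at day 5 and 4.04 at day 3) and Hoxd10 (3.93 and 3.24). Both genes were below 4.86 on both days, so they are not shown to exceed background. Hoxb1, the hindbrain gene that is also the first to come on in the posterior streak, had 8.31, 8.89 and 8.75 at day 5 and 5.84, 5.63 and 5.74 at day 3 (2.91 ± 0.18, adjusted p = 5.9e-10). Hoxd1 reached 7.99, 8.23 and 8.71 at day 5 against background levels of 4.09, 4.13 and 3.72 at day 3. Hoxb5, Hoxb6 and Hoxb2 rose by 2.89, 2.62 and 2.43, Hoxb5 against a level below 4.86. Hoxb7, Hoxb9 and Hoxb13 had differences from -0.14 to -0.07, and their levels of 4.77 to 5.51 at day 5 stand beside the median of 4.86 of the receptor genes. Of 8 Hox cofactors 3 rose, led by Meis2 (1.64), whose call was lost without array 3 of day 3 (adjusted p = 0.051), when 1 rose.

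Collagens and the enzymes that finish them rose and none fell. Of 26 collagen genes, 11 rose (median 0.46), and without array 3 of day 3, 8 rose. The basement membrane chains Col4a1 and Col4a2 rose by 2.64 and 2.51. Col1a1, the chain of fibrillar collagen I, had 7.75, 8.5 and 8.57 at day 5 and 6.52, 6.38 and 6.21 at day 3 (1.90 ± 0.22), and its partner Col1a2 rose by 1.57. Col3a1 had a difference of 1.29 that did not pass (adjusted p = 0.10), and passed with the array number as a block (adjusted p = 0.00013). Of 21 collagen hydroxylases, chaperones and crosslinkers, 10 rose (median 0.51). P4ha1, the prolyl 4-hydroxylase subunit that uses ascorbate, had 8.79, 9.41 and 8.97 at day 5 and 6.67, 6.88 and 5.73 at day 3, a rise of 2.63 ± 0.28 (adjusted p = 1.4e-06). Serpinh1 (Hsp47), the collagen chaperone, rose by 2.14 and Loxl1, a lysyl oxidase relative, by 1.96. Of 30 other matrix genes, 15 rose and 1 fell (2 with the array number as a block), with the fibrillin Fbn2 up by 4.45 and the proteoglycan Vcan (versican), of the cardiac jelly, by 3.33. Hapln1, which links versican to hyaluronan, had 9.55, 9.37 and 8.67 at day 5 against background levels of 3.92, 3.55 and 3.59 at day 3.

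Markers of other tissues were measured on the same arrays. Of 28 extraembryonic endoderm genes, 15 rose and 0 fell (median 1.07; 1 fell without array 2 of day 5), yet Afp, Apoa1, Apob and Amn, products of mature visceral endoderm, had differences of -0.23, 0.02, 0.07 and -0.20 that did not pass. Ttr, a transport protein of that tissue, rose by 1.62 ± 0.45, with 10.09, 10.30 and 8.35 at day 5, and its other probe sets rose by 4.08 to 5.01. Of 19 definitive endoderm genes, 13 rose and 1 fell, led by Spink1 (5.10), a trypsin inhibitor, Krt8 (2.85), Cxcr4 (2.73) and Krt18 (2.47). Trh, the precursor of thyrotropin-releasing hormone, was the member that fell (2.81 lower), and 2 fell without array 3 of day 3 or with the array number as a block. Foxa2, a forkhead factor of node and endoderm, was high at day 3 on arrays 1 and 2 only (10.44, 10.54 and 7.31) and had 8.86, 8.92 and 7.93 at day 5. Of 17 trophoblast genes, 8 rose and 1 fell, with Plac1 up by 4.06 ± 0.28, and 2 fell without array 3 of either day or with that block. Eomes was the member that fell, and the marker Elf5 had a difference of 0.07 that did not pass. Tfap2c had a difference of -1.61 that did not pass (adjusted p = 0.115), and it fell without array 3 of day 3 (adjusted p = 0.012). Several of these lists share members, such as Cdx2, Krt8, Krt18 and Gata6.

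Ectoderm lists were mixed. Of 26 neuroectoderm genes, 3 rose and 5 fell (median -0.03), with 8 falls when the array number was a block. Sox1 and Pax6, which define neural plate, had differences of -0.02 and 0.06 and stayed at means of 5.80 and 5.95 at day 5. Irx3 rose by 2.47 and Ncam1 by 1.13, both of which mesoderm also expresses. Of 14 neural crest genes, 5 rose and 2 fell, and 1 fell when any array except number 1 of day 3 was left out. The risers Ets1 (3.18), Ednrb (2.58) and Msx1 (2.36) are known from mesoderm too, Sox10, the defining factor of crest, differed by -0.09, and Foxd3 fell by 1.40. Fibroblast markers rose in 8 of 16 cases, led by Vim and the bHLH factor Twist2 (2.06), while Dcn and Lum, defining products of fibroblasts, had differences of 0.04 and 0.42 that did not pass (Lum passed with the array number as a block, adjusted p = 0.045), and Thy1 fell by 1.23.

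**Figure D3:**
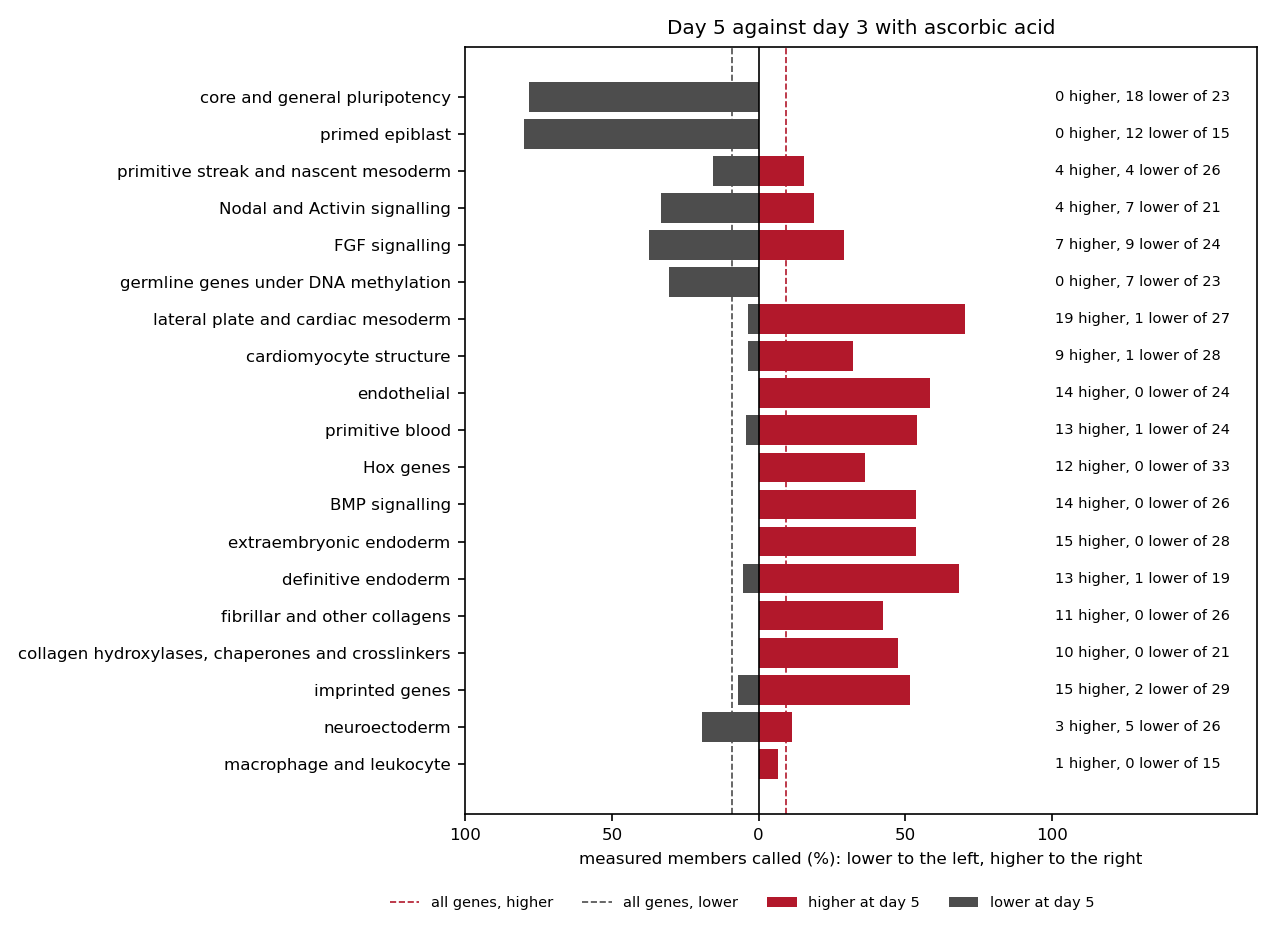
Share of the measured members of 19 gene lists (x axis, percent) that passed the test between day 5 and day 3 with ascorbic acid, higher at day 5 to the right and lower to the left, with counts beside the bars. Dashed lines are the shares over all genes, 9.21% higher and 8.92% lower. Pluripotency and epiblast lists extend to the left alone, and the BMP, Hox, collagen and vessel lists to the right alone.

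Genes of DNA methylation, and genes that it silences, fell more often than they rose. Of 23 germline genes that DNA methylation silences in the embryo, 7 fell and 0 rose (median -0.41). With the array number as a block, 12 fell, and without array 3 of day 3 or array 3 of day 5, 4 fell. Sycp3, a protein of the meiotic chromosome axis, had 5.49, 6.33 and 6.11 at day 5 and 9.85, 10.14 and 10.07 at day 3 (4.04 lower, adjusted p = 2.6e-08). Ddx4 (Vasa), a germ cell helicase, was at background at day 5 (3.35, 3.07 and 3.15) and at 6.78, 6.96 and 7.41 at day 3. In the earlier step from day 2 to day 3, 11 germline genes fell. Of 18 genes of DNA methylation and its removal, 3 rose and 6 fell. The de novo methyltransferase Dnmt3b fell by 2.20 ± 0.30, its cofactor Dnmt3l by 2.17 and the dioxygenase Tet1 by 1.32. Tet2 had 7.73, 7.48 and 7.56 at day 5 and 6.62, 6.40 and 6.67 at day 3, a rise of 1.03 ± 0.30 (adjusted p = 0.022), with an adjusted p of 0.078 without array 2 of day 3 and 0.076 without array 1 of day 5.

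JmjC demethylases gave 3 rises and 4 falls among 23, beside 9.21% and 8.92% of all genes. Jmjd1c and Kdm4c were both 1.16 lower and Kdm6b, which removes the H3K27 methyl mark, 0.81 higher. Polycomb genes fell in 7 cases and rose in 3 of 28, Phc1 fell by 1.82 and Cbx7 fell by 1.62, and with the array number as a block 7 rose. Of 29 imprinted genes, expressed from 1 parental copy, 15 rose and 2 fell (median 0.93), and 1 fell when any array except number 2 of day 3 and number 3 of day 5 was left out. Igf2, the fetal growth factor, had 13.44, 13.26 and 13.36 at day 5 and 7.44, 7.44 and 7.22 at day 3, a rise of 5.99 ± 0.14 (63.4-fold, adjusted p = 1.4e-16). Cdkn1c (p57), a cell cycle inhibitor, rose by 3.25, Dlk1 by 3.03 and Mest by 2.57. The RNAs Meg3, Rian and Mirg, which lie next to Dlk1, had differences of 0.04, -0.21 and -0.20. Of 18 vitamin C and glucose transport genes, 4 rose and 4 fell, with 1 fall without array 3 of day 3. Slc23a2, the main ascorbate transporter of most cells, had 7.63, 7.37 and 7.16 at day 5 and 7.90, 7.65 and 7.82 at day 3 (-0.40, adjusted p = 0.09), and passed without array 1 of day 5 (-0.53, adjusted p = 0.047) and with the array number as a block (adjusted p = 0.045). The epithelial transporter Slc23a1 fell by 1.22, with an adjusted p of 0.063 without array 3 of day 3. Slc2a3 and Slc2a1, which carry glucose and oxidised vitamin C, rose by 1.5 and 1.31.

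Of 19 glycolysis genes, 8 rose and 2 fell (median 0.39), and 3 rose without array 3 of day 3, array 1 of day 3 or array 2 of day 5 (5 without array 1 of day 5), with Aldoa, Tpi1 and Pfkl among those no longer called without array 3 of day 3. Pgk1 (phosphoglycerate kinase) had 13.26, 12.90 and 12.98 at day 5 and 12.44, 12.54 and 12.31 at day 3, a rise of 0.62 ± 0.14 (adjusted p = 0.0027) with groups that do not overlap. Ldha (lactate dehydrogenase A) did not pass (0.03), while Ldhb fell by 1.83 and Pdk1, the kinase that keeps pyruvate out of mitochondria, by 1.09. Of 25 hypoxia and HIF target genes, 10 rose and 1 fell (median 0.76), led by P4ha1, Vegfa (2.56) and Epas1 (HIF-2 alpha, 2.40), and Hif1a differed by 0.09. Of 17 cholesterol synthesis genes, 0 passed in limma, 2 fell and 1 rose with the array number as a block. Cell cycle genes were mostly level (4 rose and 3 fell of 36), as was Pttg1 (securin), with a difference of 0.02. With the array number as a block 9 cell cycle genes fell.

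The control aggregates show the same interval without ascorbic acid. There, 1652 genes rose (9.08% of those tested) and 1681 fell (9.24%) between the same days. Of the genes that rose with ascorbic acid, 1317 rose in controls too, which is 78.6% of the rises with ascorbic acid and 79.7% of those in controls, and 1284 fell in both (79.1% and 76.4%). No gene was called in opposite directions. The difference itself, the step with ascorbic acid minus the step in controls, passed the test for 1 gene (0.0055%), with 326 genes at an unadjusted p under 0.05. Arrays of the same day and number deviate together in the treated and control groups, so the difference was also fitted with day and number as blocks over 12 arrays. That paired fit called 26 genes (0.143%), 25 of them with a larger step under ascorbic acid and 1, Krt18, with a smaller one.

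Tal1 was the gene called without pairing. It had 9.67, 9.54 and 9.54 at day 5 and 5.51, 5.50 and 5.32 at day 3 with ascorbic acid, against 8.26, 8.14 and 7.45 at day 5 and 5.41, 5.49 and 5.66 at day 3 in controls. At day 5 every treated array lies above every control array, and at day 3 the groups overlap. The day 3 levels of both arms lie within the range of the receptor genes, so the size of each step may be understated. The step was 1.71 ± 0.21 larger with ascorbic acid (adjusted p = 0.0021), larger in 3 of 3 numbers, and 0.0025 was its adjusted p in the paired fit. Over 21 alternatives the adjusted p ran between 0.000208 and 0.0974, and it passed 0.05 in 20 of them, the exception being the fit to the 12 arrays alone.

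Other blood genes had the same direction. Of the 24 primitive blood genes, 22 had the larger step with ascorbic acid, 91.7% against 51.1% of all genes. In all 3 numbers 17 had it, 70.8% against 12.4% of all genes. The median difference of the steps was 0.81 in this list and 0.01 over all genes. In controls 4 of the 24 rose and 2 fell. Hbb-bh1 had steps of 8.27, 7.68 and 5.82 with ascorbic acid and 4.06, 5.4 and 2.66 in controls, a difference of 3.22 that the paired fit called (SE 0.31, adjusted p = 0.0011) and the unpaired fit did not (adjusted p = 1). Array 3 of day 5 was the lowest in both arms. Lmo2 had steps of 2.23, 2.14 and 1.73 against 0.84, 1.36 and 0.32 (paired adjusted p = 0.0041), and Nfe2 steps of 1.94, 2.01 and 1.44 against 0.92, 0.71 and -0.03 (paired adjusted p = 0.0072). Myb, a factor of blood progenitors that embryonic stem cells also express, had the smaller decline with ascorbic acid, with steps of -0.89, -0.58 and -1.70 against -1.97, -2.22 and -3.22 (paired adjusted p = 0.0072). Its own decline of -1.06 with ascorbic acid had an adjusted p of 0.051, and 0.0051 with the array number as a block. In the vessel list 22 of 24 genes had the larger step with ascorbic acid (91.7% against 51.1% of all genes, median 0.34). Tek was called in the paired fit (1.58, adjusted p = 0.0073). Lists were chosen with these results known, and their counts are a description.

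Leading glycolysis genes were lower in treated aggregates than in controls at day 3. Aldoa (aldolase) had 12.51, 12.48 and 12.76 at day 5 and 12.09, 12.02 and 12.00 at day 3 with ascorbic acid, against 12.12, 12.40 and 12.76 at day 5 and 12.53, 12.58 and 12.45 at day 3 in controls. The treated day 3 arrays are all below the control day 3 arrays, while the day 5 groups overlap. Pgk1 had 12.95, 13.06 and 12.97 at day 5 and 13.12, 13.10 and 12.95 at day 3 in controls, so its step there was -0.06. The paired fit called 4 genes of this list, Pgk1 (0.68), Aldoa (0.64), Tpi1 (triosephosphate isomerase, 0.62) and Ldha (0.56), each with an adjusted p of 0.017 to 0.018, and the unpaired fit called 0 of them. Of the 19 glycolysis genes, 16 had the larger step with ascorbic acid (84.2% against 51.1% of all genes, median 0.32). In controls 1 rose and 4 fell. Over the list the treated aggregates differed from controls by a median of 0.12 at day 5 and -0.10 at day 3. Ddit4 and Higd1a, hypoxia-responsive genes of stress and mitochondria, were called in the paired fit as well (0.94 and 0.79). Of the 25 hypoxia and HIF target genes, 13 had the larger step (52.0%, median 0.01), near the 51.1% and 0.01 of all genes. Epas1 had the smaller step with ascorbic acid (-1.23) and was uncalled in the paired fit (adjusted p = 0.057). Of the 17 cholesterol synthesis genes, 0 had the larger step with ascorbic acid, against 51.1% of all genes (median -0.30). Treated aggregates differed from controls over this list by a median of 0.31 at day 3 and 0.06 at day 5, against 0.01 over all genes. All 17 were higher with ascorbic acid at day 3 and 12 at day 5, against 9329 and 9580 of all 18193 genes.

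In the unpaired test of the difference, the other genes among the 10 of lowest p were uncalled. They include Inka1, a kinase inhibitor (1.26, adjusted p = 0.28), Plxnc1, a semaphorin receptor (1.16, adjusted p = 0.28), Gata1 (0.95, adjusted p = 0.56), Hapln1 (1.24) and Rps4l, a ribosomal protein gene (-0.78). The paired fit called Inka1, Plxnc1 and Hapln1 with larger steps. It also called Rspo3 (1.74, adjusted p = 0.0011), with steps of 2.88, 3.02 and 4.89 under ascorbic acid against 1.18, 1.19 and 3.19. Krt18 had steps of 2.56, 2.16 and 2.68 under ascorbic acid against 3.09, 3.09 and 3.11 (-0.63, adjusted p = 0.039).

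**Figure D4:**
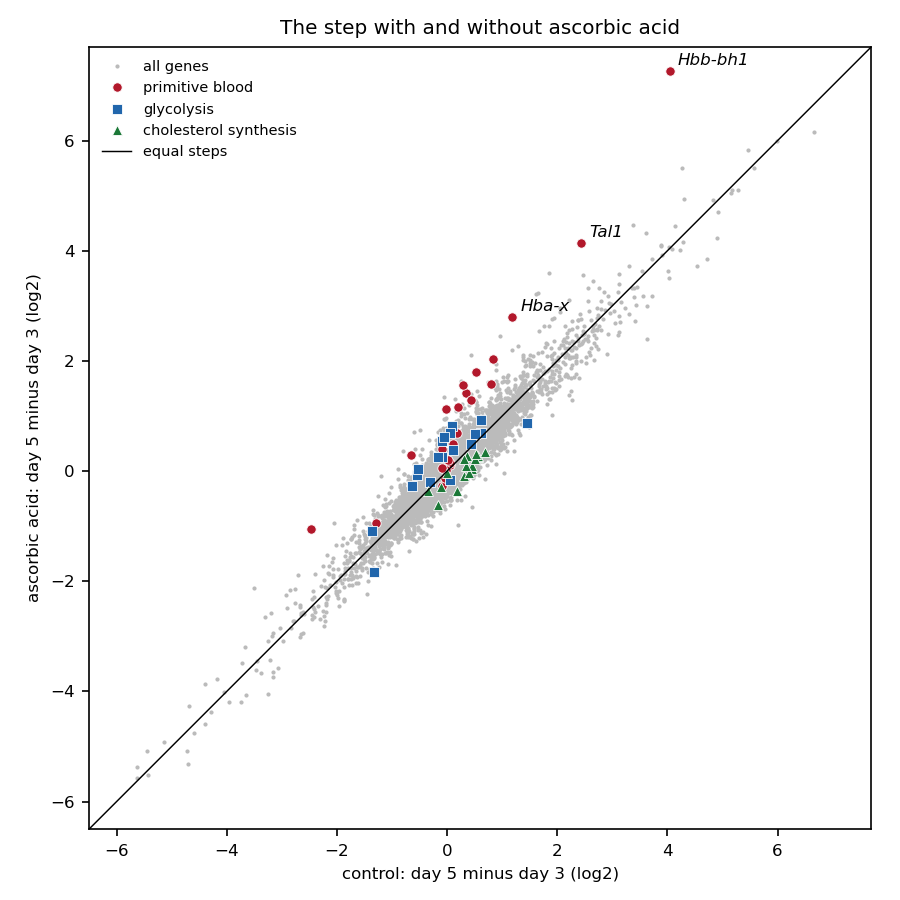
Difference between day 5 and day 3 (log2) of each of 18193 genes with ascorbic acid (y axis) and in controls (x axis), with primitive blood, glycolysis and cholesterol synthesis genes in colour and a line where the steps are equal. Hbb-bh1 (7.26 with ascorbic acid and 4.04 in controls), Tal1 (4.14 and 2.43) and Hba-x (2.79 and 1.19) lie above the line, and all 17 cholesterol synthesis genes lie below it.

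**Figure D5:**
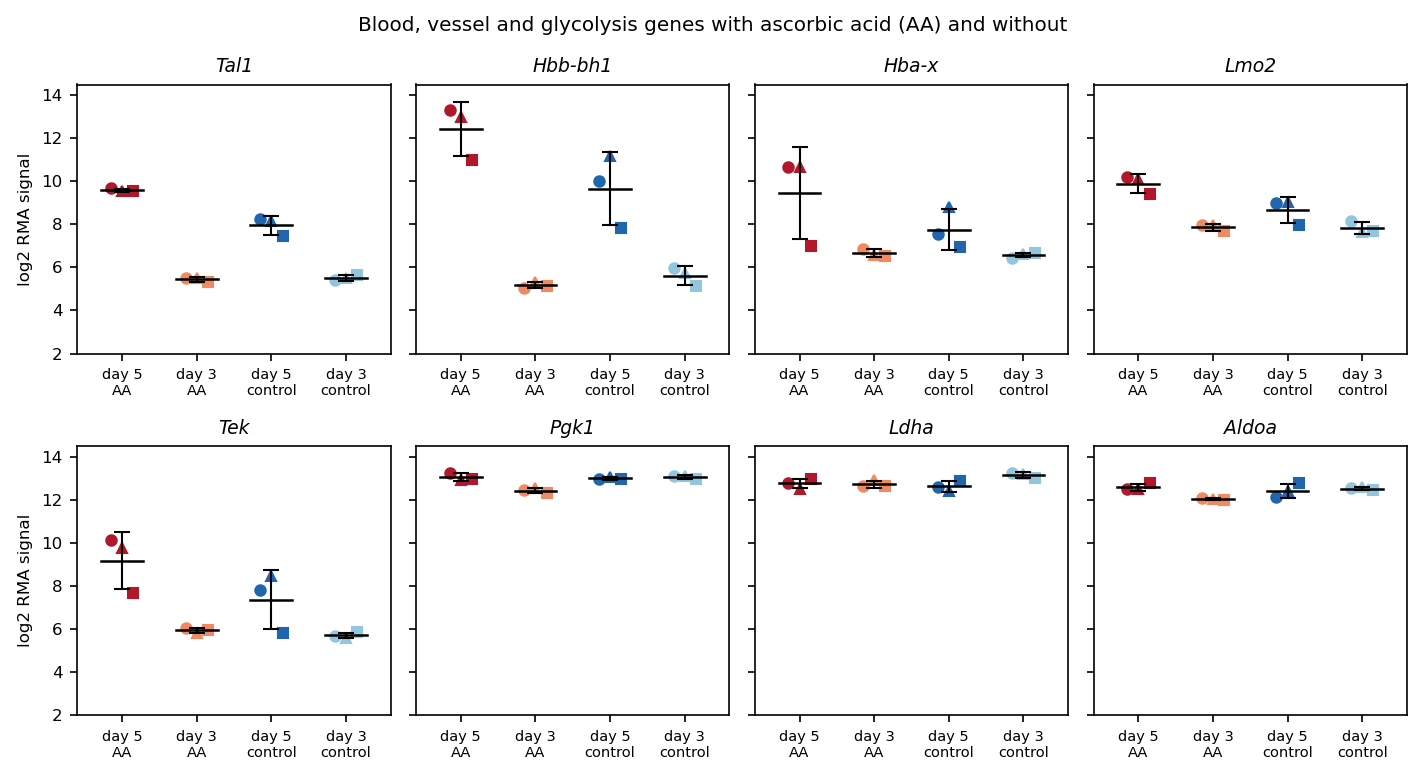
Log2 RMA signal (y axis) of 8 blood, vessel and glycolysis genes in 4 groups, day 5 and day 3 with ascorbic acid (AA), then day 5 and day 3 in controls. Circles, triangles and squares are arrays 1, 2 and 3, and black bars are the mean and SD. Tal1 is higher with ascorbic acid on all 3 day 5 arrays, array 3 is the lowest of day 5 for Hbb-bh1, Hba-x and Tek in both arms, and Pgk1 and Aldoa are lower with ascorbic acid on all 3 day 3 arrays.

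The promoters of Pgk1 and Ldha are shown because hypoxia-inducible factors are known to act on both genes. Capitals mark ACGTG, part of the element these factors bind, searched on both strands, so that CACGT is the same letters on the other strand and CACGTG holds overlapping matches on both. Pgk1 holds 2 matches in chrX:106186850-106187099 and Ldha 5 in chr7:46845554-46845803, both on the plus strand. ACGTG was found in 16.6% of all promoter windows, in 19.6% of the 18009 windows of genes tested and in 12 of the 30 windows of the 19 glycolysis genes, of which 9 genes held it. Of the windows of genes that rose over the step 20.5% held it, and of those that fell 22.1%.
Pgk1: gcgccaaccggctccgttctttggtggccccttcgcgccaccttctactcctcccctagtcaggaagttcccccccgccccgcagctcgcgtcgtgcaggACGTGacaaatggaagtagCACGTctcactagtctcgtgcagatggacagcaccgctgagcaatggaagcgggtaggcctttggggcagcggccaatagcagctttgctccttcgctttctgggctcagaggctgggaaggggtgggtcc
Ldha: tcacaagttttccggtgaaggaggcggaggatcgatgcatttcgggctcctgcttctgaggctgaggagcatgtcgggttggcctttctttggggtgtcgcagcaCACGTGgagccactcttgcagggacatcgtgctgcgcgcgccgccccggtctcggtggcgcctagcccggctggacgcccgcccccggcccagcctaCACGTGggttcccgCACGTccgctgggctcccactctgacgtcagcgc

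Promoters of changed genes were somewhat richer in CpG than those of all genes tested, in both directions. The ratio of observed to expected CpG had a median of 0.70 over 1309 genes that rose, 0.73 over 1306 that fell and 0.63 over 14368 tested, with a median GC content of 61.6%, 59.2% and 57.6%. These are descriptions of the first listed start of each gene, with no test. The genes tested include those at background level, and the sets were not matched for level.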

How the data were processed

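Gene expression was measured on Affymetrix mouse genome arrays from 100 ng of total RNA. The authors deposited log2 values, made with RMA per the submitters' processing notes (sources used here give no version). The 45101 probe sets were named through the platform annotation: 34958 have 1 gene symbol, 932 several and 9211 none, and the probe set with the highest mean stood for each of 18193 genes. Group means of all 21 arrays (7 groups of 3) were fitted with limma 3.58.1 in R 4.3.3, with an intensity trend, and p-values were adjusted by Benjamini-Hochberg over all genes. P-values rest on a spread within groups that is pooled over all 21 arrays, and the number of arrays limits the precision. Same-numbered arrays deviated together (r = 0.136 to 0.2 between day 5 and day 3 with ascorbic acid, and 0.213 to 0.679 between treated and control arrays of a day), so the numbers pair them by the criterion of 0.1 in every pair. Whether a number marks a shared culture is not given in the labels, and the main fit is unpaired. With the number as a block in the 6 arrays of the step, 4645 genes changed, against 3298 in the main fit.

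Genes were named by rule: the 15 largest rises and 15 largest falls among called genes without overlap, up to 5 called members of each list, a set of 19 markers, and the 10 genes of lowest p for the difference of steps. The members and lists were chosen with earlier results of these data known. The fits were tested on simulated data. Alternatives covered the arrays fitted, normalization, dim genes, probe set choice, variance model, number blocks and single arrays left out. Of the arrays, 15 outside the step served the fit, the controls and day 2.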

Additional observations from a re-analysis of the deposited data

Results flagged for a closer look

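Tal1, the basic helix-loop-helix factor that specifies blood, was singled out because its step between the days differed between treated and control aggregates by a test of the difference itself (the interaction of day and treatment in limma). The step from day 3 to day 5 was 4.14 ± 0.15 with ascorbic acid and 2.43 ± 0.15 in controls (SE, log2, n = 3 arrays per group), a difference of 1.71 ± 0.21 with an adjusted p of 0.0021, in the same direction in 3 of 3 numbers. Day 3 levels of Tal1 lie within the range of the receptor genes in both arms, so the size of each step may be understated. Over 21 alternatives the difference lay between 1.46 and 1.87. The adjusted p was 0.0974 with the 12 arrays alone and below 0.05 in the other 20, and 0.043 without the number 3 arrays of day 3 in both arms, a choice made after seeing the data.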

How the results depend on the processing

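The count of 3298 genes changed over the step with ascorbic acid lay between 3083 and 4645 under other arrays, normalizations, probe sets, variance models and blocks (4645 with the replicate number as a block). It was 1052 (617 higher and 435 lower) when a change of over 2-fold was also asked, by construction. Leaving out 1 array gave 2183 to 2930 genes (1143 to 1493 rose and 1040 to 1519 fell), fewest without array 3 of day 3. The cause was not tested. For the difference between the arms, 1 gene in the unpaired fit became 26 with day and replicate number as blocks, 3 with the probe set of largest variance, 3 with array weights, 0 with the 12 arrays alone (326 genes had an unadjusted p under 0.05 in limma with all arrays), and 2 without the number 3 arrays of day 3 in both arms, chosen after seeing the data. Leaving out 1 array gave 1 to 13 genes, 13 without array 3 of day 5 with ascorbic acid. The adjusted p of Tal1 was 0.0974 with the 12 arrays alone, its difference still 1.71. Of 214 genes named by the rule, 190 to 214 kept direction and call in each of 16 settings, the most calls lost being 24 under the added 2-fold demand, and 0 reversed. Counts of gene lists moved by over 1.5 times under the block, or without 1 array, stand beside those lists in the text. Smaller moves under the block were mostly upward, such as 20 rises in place of 15 in extraembryonic endoderm and 14 in place of 10 among collagen hydroxylases. Of 561 listed genes that did not pass, 333 have over 1 probe set, and 47 of these have another probe set that passed, such as those of Tnnt2, Runx1 and Ikzf1. With the probe set of largest variance, 12 cardiomyocyte genes rose and 2 fell, 16 primitive blood genes and 17 vessel genes rose, 2 other matrix genes and 1 BMP gene fell, and 1 immediate early gene and 1 p53 target rose. Dim probe sets near the level of receptor genes have only a bound on their change.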

Other observations

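Other gene groups gave these values over the step with ascorbic acid, beside 9.21% of all genes that rose and 8.92% that fell. Of 23 semaphorin and receptor genes, 9 rose and 2 fell (median 0.06; 4 fell with the array number as a block), and of 18 ephrin and Eph genes, 4 rose and 2 fell (median 0.14), with 1 rise left without array 3 of day 3. Integrins and cadherins rose in 8 of 26 cases and fell in 3, with 4 rises left without array 3 of day 3, and 5 rises and 1 fall without array 3 of day 5. Of 17 retinoic acid genes, 4 rose and 2 fell, with 2 rises without array 2 of day 3 or array 1 of day 5. Of 11 primordial germ cell genes, 3 rose and 4 fell (median -0.61), with members shared with the germline list, and 2 fell without array 2 of day 3, array 2 of day 5 or array 3 of day 5.

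Stress and damage genes were measured as well. Of 21 immediate early and heat shock genes, 0 rose and 4 fell (2 rose and 6 fell with the array number as a block). Of 26 oxidative stress genes, 3 rose and 5 fell (6 and 8 with that block, and 1 rise without array 1 of day 3, array 3 of day 3 or array 3 of day 5), and of 20 p53 target and apoptosis genes, 0 rose and 3 fell (3 rose with the block and 1 without array 2 of day 5). Of 16 surface ectoderm and keratin genes, 4 rose and 0 fell, and the 4 were Krt8, Krt18, Krt19 and Gata3.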
